A study of Mus musculus with 14 samples.

Results

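The 8 genes described here encode proteins that fuse mitochondria (Mfn1, Mfn2, Opa1), divide them (Dnm1l, Fis1, Mff) or mark them for removal by mitophagy (Pink1, Bnip3). They were chosen by function, and their probe sets are all those that the platform annotation assigns to exactly 1 of these symbols: 21 of the 45101 probe sets of the array, for 8 of 18194 gene symbols. RNA came from left ventricles of male C57BL/6 mice and was measured on 14 Affymetrix mouse arrays. Wild type (labelled Hsp22 WT) and knockout (Hsp22 KO) mice differ in Hspb8, the gene of the small heat shock protein Hsp22. Basal hearts without pressure overload gave 3 wild-type and 3 knockout arrays, and hearts taken 3 days after TAC (transverse aortic constriction, in which a tie around the aorta raises the load on the ventricle) gave 4 wild-type and 4 knockout arrays. No group is labelled as sham-operated. The labels do not say how or in which cells Hspb8 was removed, nor whether each array is a separate animal, so that p-values measure only the spread between arrays.

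Mitochondria form a network that is remodelled by large GTPases. The mitofusins Mfn1 and Mfn2 join outer membranes and Opa1 joins inner membranes and shapes cristae, while Dnm1l (the gene of Drp1) is drawn from the cytosol by outer membrane adaptors such as Mff and Fis1 and constricts the organelle. The kinase Pink1 builds up on mitochondria that have lost their membrane potential and calls in the ubiquitin ligase parkin, and Bnip3 is an outer membrane receptor, induced by low oxygen in many cells, that binds the autophagosome directly. Cardiac muscle is packed with mitochondria and depends on this turnover.

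Of the 21 probe sets, 17 exceeded the median of the whole table (log2 5.75) in every one of the 14 arrays and were tested. At least 1 probe set of each of the 8 genes was among them. The other 4 lay below it on all 14 arrays. Differences between groups were taken within a probe set, not between probe sets. Levels of different probe sets were used for the filter, to pick 1 probe set per gene, and for means and sums over several genes. Array medians ran from 5.7 to 5.8. Hspb8 read 10.26 or more in all wild-type and 5.92 or less in all knockout arrays on 2 of its 3 probe sets, and the third, of a class that can bind other transcripts, overlapped between genotypes. All 10 cardiomyocyte markers examined, such as Myh6 and Tnnt2, were above the filter, and their mean log2 value ran from 13.72 to 14.24. Over the 24525 tested probe sets, arrays of basal wild type correlated with r of 0.982 to 0.985, of basal knockout with 0.985 to 0.986, of TAC knockout with 0.969 to 0.990 and of TAC wild type with 0.922 to 0.984. The array TAC WT 3 stood apart in that group. File names put basal and TAC arrays in runs far apart, so run and surgery cannot be told apart. Genotypes after TAC are compared within a run, and basal genotypes across days, because of basal KO 3.

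In wild type after TAC, Pink1 and Bnip3 were lower and Dnm1l and Mff higher, each on at least 1 probe set but not on every one tested for Pink1, Dnm1l and Mff. Fis1, also a fission gene, and the fusion genes did not pass the test. Fission and fusion genes were not compared with each other. With limma and Benjamini-Hochberg adjustment over all 24525 probe sets, 5 of the 17 member probe sets passed an adjusted p of 0.05, against 50.2% of all probe sets. Of the 5, 3 were higher (27.8% of all) and 2 lower (22.4% of all). In the knockout 7 of 17 passed, against 43.2% of all, with 3 higher (23% of all) and 4 lower (20.2% of all). The share of members was thus below or close to that of the array as a whole. The members' median difference was log2 -0.06 in wild type and -0.19 in the knockout, beside 0.04 and 0 over all tested probe sets. Median sizes, sign aside, were log2 0.24 and 0.28, beside 0.40 and 0.35 over all. In wild type 4 of 17 member probe sets did not overlap between basal and TAC arrays (49.6% of all), and in the knockout 13 of 17 did not (52.4% of all), of which 9 were lower (24.9% of all) and 4 higher (27.5% of all).

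**Figure D1:**
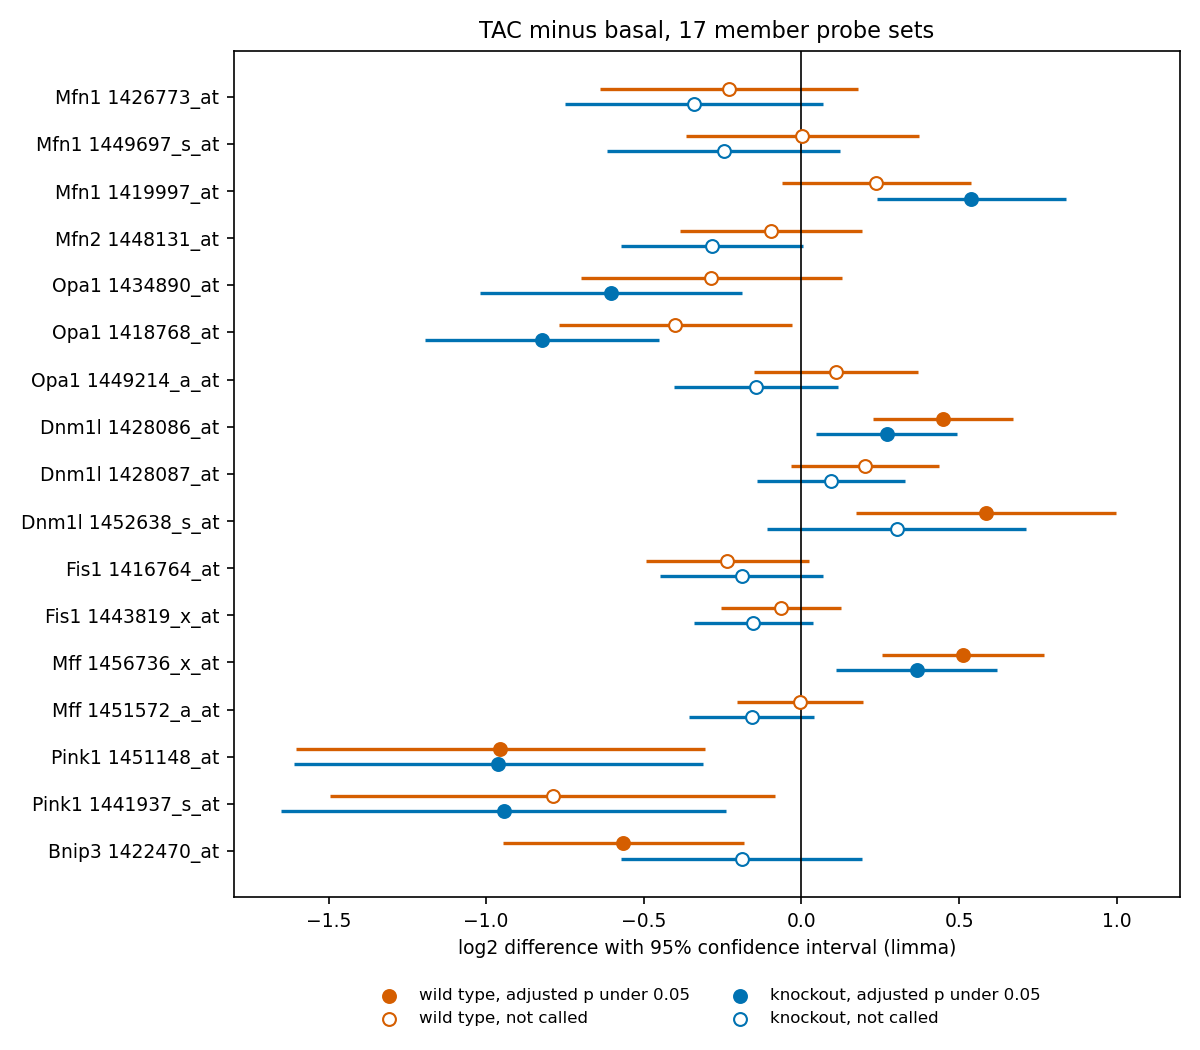
Difference between TAC and basal arrays (log2, points) with its 95% confidence interval (lines) for the 17 tested member probe sets, in wild type (4 against 3 arrays) and in the knockout (4 against 3 arrays); filled points passed an adjusted p of 0.05. Both Pink1 probe sets lie left of 0 and all 3 Dnm1l probe sets right of it, while probe sets of Mfn1, Opa1 and Mff fall on both sides.

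Mfn1 (chromosome 3, 32529443 to 32579225 in GRCm38.p6) is one of the mitofusin pair. Its probe set with the highest mean, 1426773_at, read 11.29, 11.40 and 11.29 in basal wild type and 11.33, 11.36 and 11.28 in basal knockout. After TAC it read 11.47, 11.44, 10.53 and 10.95 in wild type and 11.20, 10.75, 11.02 and 10.96 in knockout. Wild-type arrays overlapped, because TAC WT 1 and 2 lay above all basal arrays and TAC WT 3 and 4 below them, while all 4 TAC knockout arrays lay below the basal ones. The difference was log2 -0.23 in wild type (SE 0.19, adjusted p = 0.326) and -0.34 in the knockout (SE 0.19, adjusted p = 0.158). Without TAC WT 3 the wild-type value was log2 -0.04, and the knockout value passed in a fit on knockout arrays only (adjusted p = 0.044) and when arrays were weighted (log2 -0.33, adjusted p = 0.0421). A dim probe set, 1419997_at, went the other way, from 5.90, 5.92 and 6.04 in basal knockout to 6.62, 6.60, 6.46 and 6.29 after TAC. That rise in the knockout passed (log2 0.54, SE 0.14, adjusted p = 0.00809), and in wild type the same probe set differed by log2 0.24 (adjusted p = 0.167), and by 0.36 without TAC WT 3 (adjusted p = 0.0263). The probe sets of Mfn1 therefore disagree in sign. The one remaining, 1449697_s_at, differed by log2 0.00 and -0.25, neither passing (adjusted p = 0.988 and 0.254).

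Mfn2 (chromosome 4, 147873586 to 147904909), the mitofusin that also tethers mitochondria to the endoplasmic reticulum, varied little. It read 11.74, 11.89 and 11.71 in basal wild type and 11.99, 11.91 and 11.83 in basal knockout, then 11.80, 11.93, 11.30 and 11.70 in TAC wild type and 11.67, 11.68, 11.47 and 11.69 in TAC knockout. The wild-type groups overlapped and the knockout groups did not. Neither difference passed (log2 -0.10, SE 0.13, adjusted p = 0.56 in wild type; log2 -0.28, SE 0.13, adjusted p = 0.102 in the knockout). The wild-type value was log2 0.03 without TAC WT 3 and 0.07 with array weights, so it has no settled sign. The knockout value passed without TAC WT 3 (adjusted p = 0.0336), with array weights (log2 -0.36, adjusted p = 0.00867) and after quantile normalization (log2 -0.39, adjusted p = 0.0394). A second probe set of Mfn2 lay below the filter on all arrays.

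Opa1 (chromosome 16, 29579281 to 29663127), the GTPase of the inner membrane, fell in the knockout on 2 of its 3 probe sets. The first, 1434890_at, read 11.06, 11.28 and 11.01 in basal knockout and 10.74, 10.48, 10.54 and 10.29 after TAC, with no overlap (1.52-fold lower, log2 -0.60, SE 0.19, adjusted p = 0.0227). The second, 1418768_at, read 9.97, 9.73 and 9.58 and then 9.16, 8.83, 8.96 and 8.80, also with no overlap (1.77-fold lower, log2 -0.82, SE 0.17, adjusted p = 0.00257). The call on the first was lost without basal KO 2 (adjusted p = 0.0861) or TAC KO 4 (adjusted p = 0.0624), and that on the second was kept without any 1 array. In wild type the first read 10.98, 11.12 and 10.97 before and 11.16, 11.05, 10.24 and 10.50 after TAC, where again arrays 1 and 2 stayed at the basal level and arrays 3 and 4 lay below it. The differences there were log2 -0.29 (adjusted p = 0.227; log2 -0.12 without TAC WT 3) and -0.40 (adjusted p = 0.0673). On the second probe set the wild-type value was log2 -0.27 without TAC WT 3, and it passed without TAC WT 1 (log2 -0.55, adjusted p = 0.00712) and after quantile normalization (log2 -0.59, adjusted p = 0.0193). The third probe set, 1449214_a_at, differed by log2 0.11 in wild type (adjusted p = 0.467) and -0.14 in the knockout (adjusted p = 0.347). Whether the TAC effect on Opa1 differs between genotypes was tested directly, and the difference was log2 -0.32 (adjusted p = 0.827) and -0.42 (adjusted p = 0.7) on the first and second probe sets.

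Dnm1l (chromosome 16, 16312228 to 16359038), the fission GTPase, rose in wild type after TAC. Probe set 1428086_at read 10.77, 10.63 and 10.67 in basal wild type and 11.13, 11.20, 10.96 and 11.27 after TAC, with every TAC array above every basal one (1.37-fold, log2 0.45, SE 0.10, adjusted p = 0.00337), and the call was kept without any 1 array. In the knockout it read 10.63, 10.80 and 10.73 before and 10.88, 10.97, 10.97 and 11.14 after, again with no overlap. The difference in the knockout was log2 0.27 (SE 0.10, adjusted p = 0.0486). That call was at the threshold: it was lost in 12 of the 14 fits that left out 1 array (adjusted p from 0.0332 to 0.155 over the 14). It was also lost with no filter (adjusted p = 0.0567), when its probe sets were averaged (adjusted p = 0.0952), after quantile normalization (adjusted p = 0.184), in a fit on the 7 knockout arrays (adjusted p = 0.0642) and with the replicate number as a block (adjusted p = 0.107). Probe set 1452638_s_at was 1.5-fold higher in wild type (log2 0.59, SE 0.19, adjusted p = 0.0219), from 8.14, 7.66 and 8.20 to 8.64, 8.06, 8.76 and 8.88, with overlap through TAC WT 2. That call ended when basal WT 2, TAC WT 3 or TAC WT 4 was left out (adjusted p from 0.051 to 0.116), and with array weights (log2 0.28, adjusted p = 0.227), quantile normalization (adjusted p = 0.0824) or a fit on wild-type arrays only (adjusted p = 0.0686). It differed by log2 0.30 in the knockout (adjusted p = 0.212). The remaining tested one, 1428087_at, differed by log2 0.20 and 0.09 (adjusted p = 0.134 and 0.495). A further probe set lay below the filter on all arrays.

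Mff (chromosome 1, 82724890 to 82752390), the main outer membrane receptor of Drp1, rose on one of its 2 tested probe sets. On 1456736_x_at the basal wild-type arrays read 11.68, 11.48 and 11.37 and the TAC arrays 12.11, 12.11, 11.82 and 12.05 (1.43-fold, log2 0.51, SE 0.12, adjusted p = 0.00361). Basal knockout arrays read 11.25, 11.52 and 11.64 and TAC knockout arrays 11.85, 11.90, 11.83 and 11.76 (1.29-fold, log2 0.36, SE 0.12, adjusted p = 0.025). Neither pair of groups overlapped, and the call in wild type was kept without any 1 array. On the other, 1451572_a_at, wild type differed by log2 -0.01 (adjusted p = 0.968) and the knockout by -0.16 (adjusted p = 0.178). The suffix x marks probe sets of which some probes can bind other transcripts, and the suffix a those that cover several transcripts of 1 gene. A probe set below the filter, 1456582_x_at, rose as 1456736_x_at did, from 5.03 to 5.19 in basal wild type to 5.50 to 5.60 after TAC (log2 0.43, adjusted p = 0.00214 with every probe set of the array tested) and by log2 0.26 in the knockout (adjusted p = 0.0372). The fourth probe set, 1457371_at, lay below the filter as well. The knockout call on 1456736_x_at was lost without basal KO 1 (adjusted p = 0.126) or TAC KO 2 (adjusted p = 0.0559), after quantile normalization (log2 0.25, adjusted p = 0.129) and when the probe sets of Mff were averaged (log2 0.10, adjusted p = 0.349).

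Fis1 (chromosome 5, 136953275 to 136966234), the other outer membrane adaptor, did not pass in either genotype. It read 10.43, 9.90 and 10.27 in basal wild type against 10.01, 10.11, 9.86 and 9.88 after TAC, with overlap through basal WT 2 (log2 -0.24, SE 0.12, adjusted p = 0.115). That difference passed when basal WT 2 was left out (log2 -0.38, adjusted p = 0.016) and when arrays were quantile normalized (log2 -0.41, adjusted p = 0.0123). In the knockout it read 10.09, 10.16 and 10.20 and then 10.00, 9.99, 9.92 and 9.93, a small shift without overlap (log2 -0.19, adjusted p = 0.21). The second probe set, 1443819_x_at, differed by log2 -0.06 and -0.15 (adjusted p = 0.559 and 0.173). Of the 3 genes of the fission machinery, Dnm1l and Mff thus had a probe set that passed as higher and Fis1 had none. These genes were not compared with each other, and the tested probe sets of Mff disagreed.

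Pink1 (chromosome 4, 138313409 to 138326296), the mitophagy kinase, had the largest fall of the 8 genes. On 1451148_at basal wild-type arrays read 11.92, 12.07 and 11.77, and TAC wild-type arrays 11.52, 11.55, 10.03 and 10.76. Basal knockout arrays read 11.78, 11.56 and 12.02, and TAC knockout arrays 11.29, 10.67, 10.68 and 10.66. Every TAC array lay below every basal array of its genotype, TAC WT 3 was the lowest of all, and TAC KO 1 was well above the other 3 TAC knockout arrays. The fall was 1.94-fold in wild type (log2 -0.95, SE 0.30, adjusted p = 0.0186) and 1.95-fold in the knockout (log2 -0.96, SE 0.30, adjusted p = 0.0209). The difference between these effects was log2 -0.01 with a 95% confidence interval of -0.92 to 0.91. The second probe set, 1441937_s_at, differed by log2 -0.79 in wild type (adjusted p = 0.0596) and fell in the knockout (log2 -0.94, adjusted p = 0.0327). Its wild-type value was log2 -0.44 without TAC WT 3 (adjusted p = 0.139) and passed without TAC WT 1 (log2 -1.0, adjusted p = 0.0181) or TAC WT 2 (log2 -0.97, adjusted p = 0.0294) and after quantile normalization (log2 -0.94, adjusted p = 0.0351). In wild type the call on 1451148_at was kept without TAC WT 3 (log2 -0.64, adjusted p = 0.0325) but ended when basal WT 2 was left out (log2 -0.88, adjusted p = 0.0649), when arrays were weighted (log2 -0.54, adjusted p = 0.0669) or when only the 7 wild-type arrays were fitted (adjusted p = 0.0621). In the knockout it was lost without basal KO 1 (adjusted p = 0.0541), basal KO 3 (adjusted p = 0.0784) or TAC KO 4 (adjusted p = 0.0519), and that on 1441937_s_at without basal KO 2 or 3 or TAC KO 2, 3 or 4 (adjusted p from 0.057 to 0.127).

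Bnip3 (chromosome 7, 138890836 to 138909506), the mitophagy receptor, fell in wild type. Its only probe set, 1422470_at, read 12.47, 12.62 and 12.41 in basal wild type and 12.38, 12.09, 11.50 and 11.77 after TAC. The groups did not overlap, although TAC WT 1 came within 0.03 of basal WT 3. The fall was 1.48-fold (log2 -0.56, SE 0.18, adjusted p = 0.0182). The call held when TAC WT 3 was left out (log2 -0.42, adjusted p = 0.0453) and ended when basal WT 2 was (adjusted p = 0.0687) or when only wild-type arrays were fitted (adjusted p = 0.059). In the knockout it read 12.06, 12.44 and 12.22 before and 12.09, 11.92, 12.25 and 11.94 after TAC, which overlap (log2 -0.19, SE 0.18, adjusted p = 0.398). The difference between the genotypes' TAC effects was log2 0.38 (95% confidence interval -0.17 to 0.92, adjusted p = 0.76), so a difference was not shown.

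**Figure D2:**
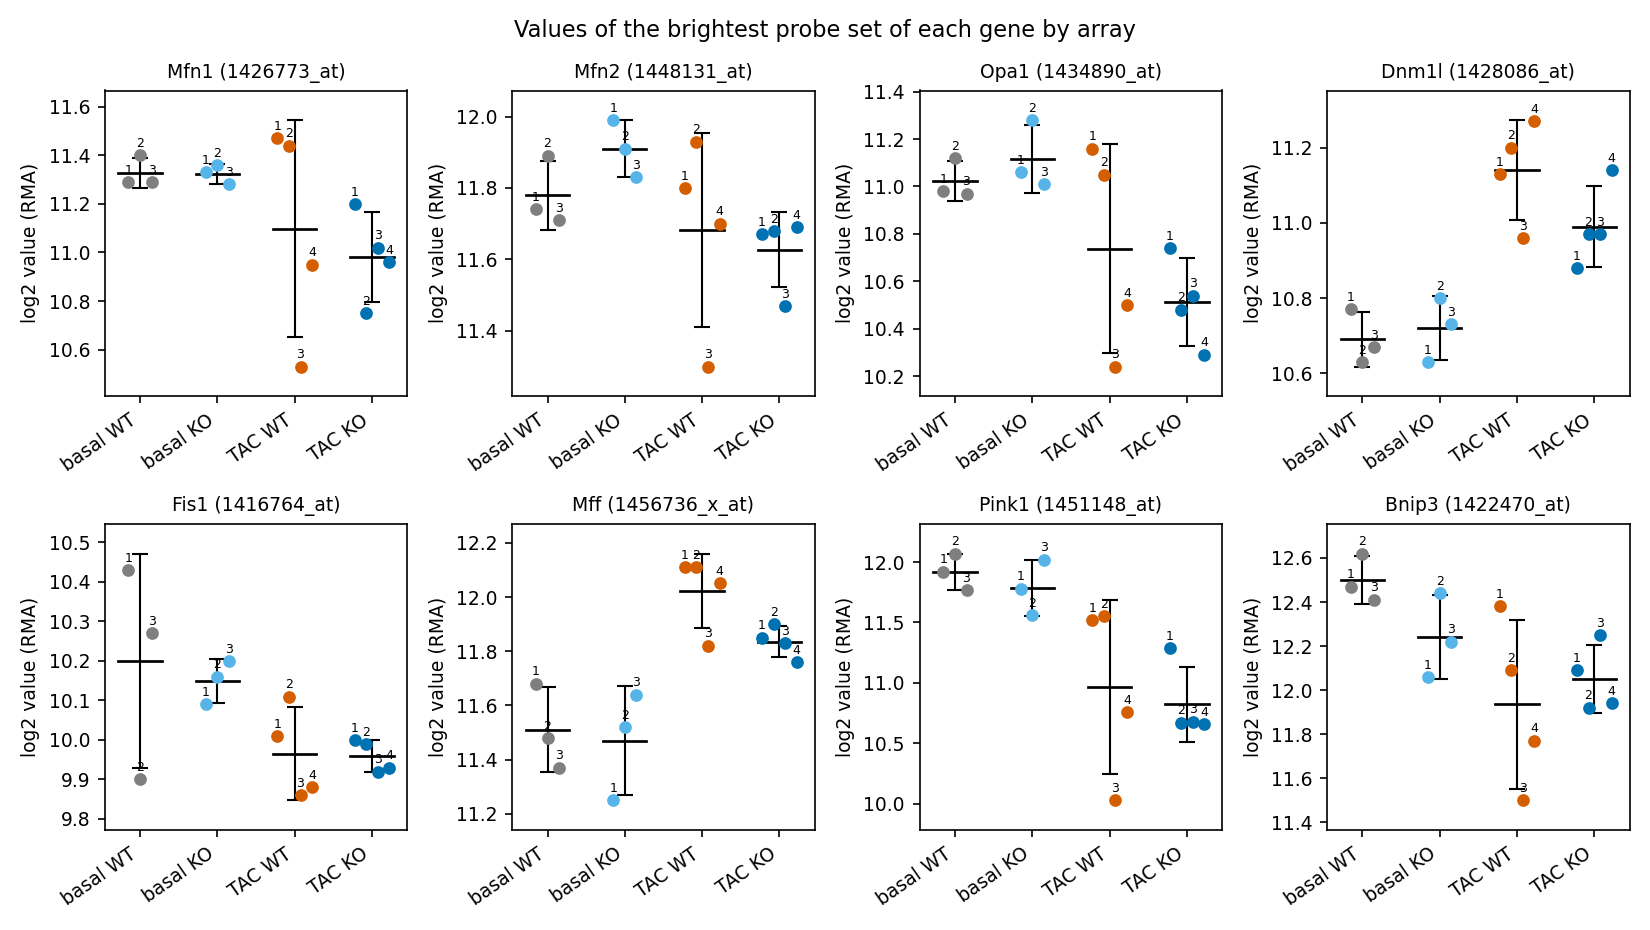
Log2 values (RMA) on each of the 14 arrays for 1 probe set per gene, the one with the highest mean; points are arrays numbered as in the labels, bars the mean, whiskers the SD (n = 3 basal, n = 4 TAC). TAC WT 3 is the lowest array of its group in all 8 panels, and Dnm1l and Mff are the panels in which TAC arrays lie above basal ones.

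The TAC wild-type arrays differed among themselves for these genes. TAC WT 3 was the lowest of its group on 16 of the 17 member probe sets and for all 8 genes, including Dnm1l and Mff, which rose in the group. Over all tested probe sets it was the lowest on 35.1%. Its array weight, by which limma's arrayWeights rates how well an array follows its group, was 0.22, the lowest of the 14. Some cell type markers moved along with this. In TAC WT 3 macrophage, fibroblast and smooth muscle markers were the highest of the group and cardiomyocyte markers the lowest. Endothelial markers of that array lay within the range of the group. Macrophage markers, 10 of 10 measured, had a summed level (log2 of the summed linear values) of 14.65 in TAC WT 3 against 12.89 to 13.25 in the other TAC wild-type arrays, and 13.72 to 14.11 in TAC knockout, 12.27 to 12.65 in basal wild type and 12.75 to 12.93 in basal knockout. Of these markers 8 of 10 were higher after TAC in each genotype, beside 27.8% (wild type) and 23% (knockout) of all probe sets. Fibroblast markers, 8 of 8 measured, summed to 13.86 to 14.17 in basal wild type and 14.26 to 14.50 in basal knockout. After TAC their sums were 14.55 to 15.68 (wild type) and 15.48 to 15.80 (knockout). Of the fibroblast markers 7 of 8 were called higher in each genotype, and 1 was called lower in wild type. None of the defining markers of either list was below the filter. Cardiomyocyte markers summed to between 17.62 and 17.65 in all 6 basal arrays, and after TAC to 17.28 to 17.67 (wild type, TAC WT 3 lowest) and 17.42 to 17.61 (knockout). Endothelial markers were lower for 3 of 8 genes in wild type and 2 of 8 in the knockout, beside 22.4% and 20.2% of all probe sets. For atrial markers the counts were 2 of 5 and 1 of 5. The knockout shares are close to that background, but the atrial differences were large and uneven. Their median was log2 -2.92 in wild type and -2.1 in the knockout, where Nppa went the other way (log2 0.78, limma adjusted p = 0.069). The atrial mean log2 value ran from 8.82 to 12.66 over basal arrays and from 7.12 to 11.1 over TAC arrays. In bulk tissue fewer cells of a type and less RNA per cell cannot be told apart, and the part of these shifts in the differences of the 8 genes was not tested.

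**Figure D3:**
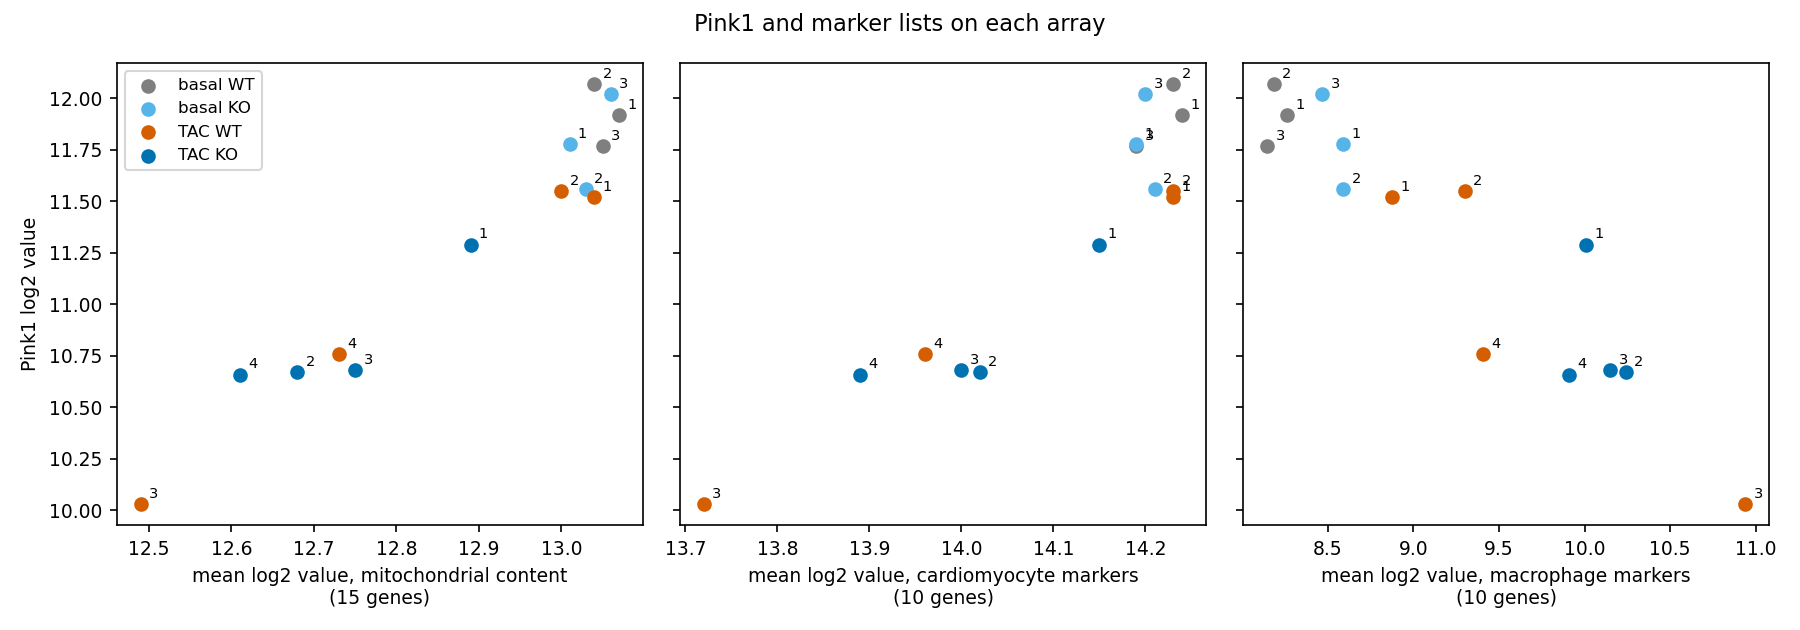
Log2 value of Pink1 on each of the 14 arrays (vertical axis) against the mean log2 value of 15 mitochondrial genes, 10 cardiomyocyte markers and 10 macrophage markers (horizontal axes); colours are groups and numbers are the labels' replicate numbers. TAC WT 3 combines the lowest Pink1 value (10.03) with the lowest cardiomyocyte mean (13.72) and the highest macrophage mean (10.94), and TAC WT 1 and 2 lie near the basal arrays in the first and second panels.

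Start-site sequences are shown for Opa1, Pink1 and Bnip3, picked after the matches were seen, because their windows share a motif. They are also the 3 genes with a fall that passed in at least 1 genotype, Opa1 only in the knockout and Bnip3 only in wild type. Any link between the motif and a fall was not tested. All 8 genes were matched in the RefSeq table of GRCm38.p6 (250 bases before to 50 bases after each annotated start). Both strands were searched for the core of the hypoxia response element (ACGTG) and the E-box bound by TFEB and the clock factors (CACGTG, which contains ACGTG on each strand). The estrogen-related receptor element (TNAAGGTCA) and a pattern for NRF1, a regulator of nuclear genes for mitochondria, were also searched for. The NRF1 pattern was GCGCA and GCGC with 1 base of any kind between them. Of its matches below, only that in Opa1 reads the same on both strands, and that in Pink1 fits on the opposite strand only. The sequences follow 5′ to 3′ on the strand of the gene, with motif matches in capitals.
Opa1, chr16:29579084-29579383, plus strand: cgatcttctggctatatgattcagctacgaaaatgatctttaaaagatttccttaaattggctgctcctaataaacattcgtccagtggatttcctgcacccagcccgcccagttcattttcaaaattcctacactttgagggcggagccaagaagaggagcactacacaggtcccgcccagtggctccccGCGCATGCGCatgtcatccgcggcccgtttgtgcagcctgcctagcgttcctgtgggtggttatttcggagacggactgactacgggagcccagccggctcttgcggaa
Pink1, chr4:138326247-138326546, minus strand: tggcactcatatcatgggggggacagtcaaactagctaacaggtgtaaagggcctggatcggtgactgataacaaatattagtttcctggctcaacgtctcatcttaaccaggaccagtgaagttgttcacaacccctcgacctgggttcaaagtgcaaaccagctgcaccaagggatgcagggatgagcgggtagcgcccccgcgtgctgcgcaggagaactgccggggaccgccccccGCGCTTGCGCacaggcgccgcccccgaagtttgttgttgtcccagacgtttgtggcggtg
Bnip3, chr7:138909457-138909756, minus strand: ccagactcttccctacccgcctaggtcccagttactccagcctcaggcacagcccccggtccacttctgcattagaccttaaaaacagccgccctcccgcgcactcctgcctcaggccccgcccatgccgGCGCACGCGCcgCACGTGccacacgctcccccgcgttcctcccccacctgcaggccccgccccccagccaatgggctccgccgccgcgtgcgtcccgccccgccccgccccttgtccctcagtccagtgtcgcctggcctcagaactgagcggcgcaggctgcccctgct

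The NRF1 letters start 59 bases before the annotated start of Opa1, 10 bases before that of Pink1 and 120 bases before that of Bnip3, and were found in the window of no other of the 8 genes. In RefSeq as a whole, 5.19% of 27025 genes had them in at least 1 window. Bnip3 also had CACGTG 108 bases before its start, 2 bases past the NRF1 letters, which 8.09% of all genes had. The ACGTG core occurred besides in 2 overlapping windows of Mfn2, and in 21.8% of all genes. The estrogen-related receptor element occurred in none of the 8 genes and in 1.43% of all. These matches describe letters in a window.

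Hspb8 loss itself was followed by no called change in these genes. With limma 0 of 17 member probe sets passed between knockout and wild type in basal hearts, 0 of 17 after TAC and 0 of 17 for the difference of the knockout effects, and 0 of 17 had an unadjusted p under 0.05 in each of the 3 comparisons. Over the whole array 2 of 24525 probe sets passed in basal hearts (0.00815%), 7 after TAC (0.0285%) and 0 for the difference (0%; 1937 with an unadjusted p under 0.05). In basal hearts the difference of the 8 genes on their main probe sets lay between log2 -0.26 (Bnip3) and 0.13 (Mfn2). The 95% confidence interval was -0.67 to 0.15 for Bnip3, -0.83 to 0.56 for Pink1, -0.35 to 0.54 for Opa1 and -0.21 to 0.27 for Dnm1l. The groups did not overlap for 1 of 17 probe sets, Opa1 1418768_at, against 13% of all, with 9.45, 9.53 and 9.37 in wild type and 9.97, 9.73 and 9.58 in knockout (log2 0.31, adjusted p = 0.929). Leaving out basal KO 3, which by its file name was run on a different day from the rest of the basal group, gave 0 calls again.

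After TAC the difference between genotypes was below 0 on 15 of 17 member probe sets, with a median of log2 -0.12, where 53.7% of all tested probe sets were below 0 and the median was -0.02. Probe sets of the same gene are not separate observations. With 1 probe set per gene it was below 0 for 7 of 8 members, beside 53.7% of all genes. The groups overlapped on each of the 17, while 4.19% of all probe sets did not overlap. The main probe set of Opa1 differed by log2 -0.22 (95% confidence interval -0.61 to 0.16, adjusted p = 0.805), that of Mff by -0.19 (-0.42 to 0.05, adjusted p = 0.717) and that of Dnm1l by -0.15 (-0.36 to 0.06, adjusted p = 0.746). Pink1 differed by log2 -0.14 with a wide interval (-0.74 to 0.46), and Bnip3 by 0.12 (-0.24 to 0.47). With array weights, which count TAC WT 3 least, 2 of 17 passed as lower in the knockout, Opa1 1434890_at (log2 -0.41, adjusted p = 0.0427) and Pink1 1441937_s_at (log2 -0.69, adjusted p = 0.0386), in a fit that called 12.1% of all probe sets. Without TAC WT 3 and with equal weights, 0 of 17 passed.

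**Figure D4:**
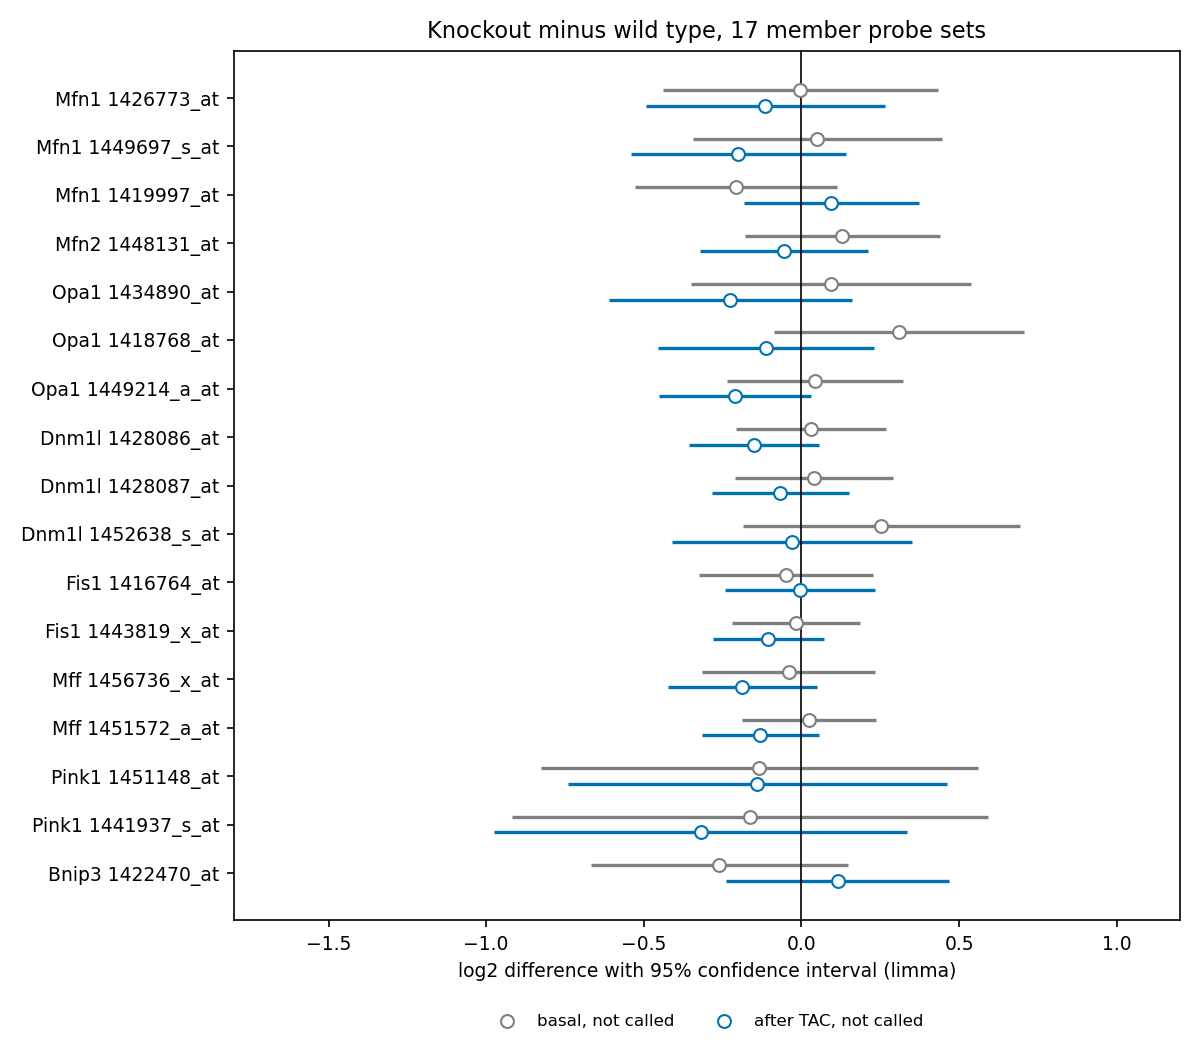
Difference between knockout and wild type (log2, points) with its 95% confidence interval (lines) for the 17 tested member probe sets, in basal hearts (3 against 3 arrays) and after TAC (4 against 4 arrays); open points did not pass an adjusted p of 0.05. Every interval includes 0, and the 2 Pink1 probe sets have the widest.

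Other genes of the same machinery were counted on 1 probe set per gene, beside 50.2% of all genes called in wild type and 43.6% in the knockout. Among proteins of fusion and of the inner membrane, 8 of 20 measured genes changed in wild type after TAC, 3 higher and 5 lower (median log2 -0.01), and 10 of 20 in the knockout, 3 higher and 7 lower (median log2 -0.16). Yme1l1, the inner membrane protease that cuts Opa1, rose by log2 0.98 in wild type (adjusted p = 0.000342) and 0.52 in the knockout (adjusted p = 0.0166). Oma1, the stress protease that also cuts Opa1, did not pass (log2 0.10 and -0.16). Parl, which cuts Pink1 in healthy mitochondria, rose by log2 0.61 and 0.52 (adjusted p = 0.00185 and 0.00606). Spg7, a subunit of the matrix-facing AAA protease, fell by 0.88 and 0.76 on the log2 scale (adjusted p = 0.000226 and 0.00076), and Micos13, a subunit of the complex at crista junctions, fell by 0.55 and 0.65 (adjusted p = 0.00559 and 0.00283). Opa3 fell by 0.41 in wild type (adjusted p = 0.0305) and 0.66 in the knockout (adjusted p = 0.00332), and the cation exchanger Letm1 fell by 0.63 in the knockout (adjusted p = 0.00424).

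Among genes of fission and of mitochondrial transport, 13 of 25 changed in wild type, 8 higher and 5 lower, and 13 of 25 in the knockout, 6 higher and 7 lower. Trak1, which links mitochondria to kinesin, was 2.31-fold lower in wild type and 2.36-fold lower in the knockout (adjusted p = 0.00076 and 0.000926), and Rhot2, its outer membrane partner Miro2, was 1.75-fold and 2.30-fold lower (adjusted p = 0.00689 and 0.000944). The outer membrane ubiquitin ligase Mul1 was 1.45-fold and 1.92-fold higher (adjusted p = 0.00649 and 0.000377), and the phosphatase Pgam5 1.5-fold and 1.36-fold higher (adjusted p = 0.000849 and 0.0053). The mitoguardin Miga1 rose by log2 0.74 and 0.55 (adjusted p = 0.00155 and 0.0103), whereas its relative Miga2 differed by log2 -0.35 in wild type (adjusted p = 0.0735) and fell by 0.80 in the knockout (adjusted p = 0.00176). Dnm2, a dynamin, fell by 0.46 and 0.35 (adjusted p = 0.00129 and 0.00747).

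Of the other mitophagy genes 11 of 35 changed in wild type, 6 higher and 5 lower, and 12 of 35 in the knockout, 6 higher and 6 lower. Tomm20 and Tomm70a, receptors that bring proteins into mitochondria, rose: Tomm20 2.12-fold and 2.13-fold (adjusted p = 3.34e-05 and 7.62e-05), Tomm70a 2.48-fold and 1.62-fold (adjusted p = 5.34e-05 and 0.00266). The mitophagy receptor Fkbp8 was 1.67-fold and 1.47-fold lower (adjusted p = 8.18e-05 and 0.000645), and the adaptor Sqstm1 1.64-fold and 1.41-fold lower (adjusted p = 0.000138 and 0.00172). Tbk1, a kinase that activates such adaptors, was 2.12-fold and 1.72-fold higher (adjusted p = 0.000276 and 0.00259). A list of 15 measured genes of mitochondrial content, such as Uqcrc1 of complex III, had 5 members lower and 1 higher in wild type (median log2 -0.25) and 5 lower in the knockout (median log2 -0.25). Uqcrc1 fell by 0.97 and 0.91, and the aspartate aminotransferase Got2 by 0.77 and 0.78. Ndufv1 of complex I fell by 0.62 and 0.55, and the mitochondrial DNA factor Tfam rose by log2 0.67 in wild type (adjusted p = 0.00205) and differed by 0.35 in the knockout (adjusted p = 0.0597). None of these lists had a member called between genotypes with limma. Their median knockout effect after TAC was log2 -0.12 for fusion, -0.11 for fission, -0.04 for mitophagy and -0.06 for content, beside -0.02 for all genes.

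The genes whose levels followed each member most closely over the 14 arrays are given as a description. Differences between the 4 groups and between single arrays of a group can both enter such likeness, and their parts were not tested. For Pink1 they were the matrix enzymes Suclg2 and Gcdh and the complex I subunit Ndufv1 (Pearson r 0.981 to 0.984). Mff was followed by the outer membrane proteins Mtch2 (r = 0.959) and Vdac3 (r = 0.957) and by Klhdc2 (r = 0.950). Klhdc2 was also among those nearest to Dnm1l (r = 0.953), with Srl, a protein of the sarcoplasmic reticulum (r = 0.960), and Cab39 (r = 0.956). Opa1 had Nceh1, Aldh5a1 and Pde4d (r from 0.968 to 0.975), Bnip3 had Etfbkmt (r = 0.965), Gpihbp1 (r = 0.922) and Rhobtb1 (r = 0.915), and Mfn1 had Abcb4, Pla2g12a and Flt1 (r from 0.948 to 0.956). Mfn2 and Fis1 had no gene as close, with Mfsd4b1, Actn2 and Cdip1 at 0.908 to 0.912 and Mrps12, Ankrd36 and Zfp219 at 0.880 to 0.894.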

How the data were processed

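The authors deposited log2 expression values for each probe set, made with RMA per the submitters' processing notes. Neither the RMA version nor joint normalization of the arrays is stated in the sources used here. Groups came from sample titles. Platform symbols were updated through RefSeq gene numbers (GRCm38.p6): 34958 probe sets had 1 symbol, 932 several and 9211 none. Probe sets above the median of the table (5.75) in at least 3 arrays were kept (24525), without the 64 controls. One 4-group model over all 14 arrays was fitted with limma 3.58.1 in R 4.3.3 (lmFit, then eBayes with a constant prior; 10 residual and 3.73 prior degrees of freedom), probe set by probe set. The code was tested on simulated data with 100 probe sets changed 1.5-fold and 100 changed 2-fold. It called 33% and 69% of these for knockout against wild type after TAC, and 27% and 64% for TAC in wild type. Changes of such sizes can thus go uncalled. Far fewer probe sets were changed there than passed in the real TAC comparisons. Adjusted p is Benjamini-Hochberg over all kept probe sets (threshold 0.05), SE is the model's and SD that between arrays. Other genes were read on their kept probe set with the highest mean (12260 genes), and named if among the up to 4 of a list with the smallest p in any comparison. For likeness the 3 genes with the highest Pearson r were taken. Arrays and further probe sets singled out in the text were chosen after their values were seen. The number of arrays limits the precision. The members, lists, motifs and alternatives were chosen with earlier results of these data known. Alternatives were no filter or a stricter one (7.7), 1 probe set per gene or their mean, quantile normalization, median centring, fits on the compared groups only, eBayes with a trend (also robust), weighted arrays, a block for the replicate number, a minimum of 1.5-fold, and each array left out.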

Additional observations from a re-analysis of the deposited data

Results flagged for a closer look

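In 5 of 34 groups of 4 arrays (17 member probe sets in each of the 2 TAC groups), 1 array lay so far from the others that its gap exceeded the 95% limit of Dixon's test. Chance gives about 1 in 20. Pink1 1451148_at read 11.29 in TAC KO 1, above the other 3 arrays of that group, which lay between 10.66 and 10.68. Mfn2 1448131_at read 11.47 in TAC KO 3, below the others at 11.67 to 11.69. Fis1 1443819_x_at read 7.91 in TAC KO 1 and 7.96 in TAC WT 2, each above its group, and Mfn1 1419997_at read 6.03 in TAC WT 3, below its group.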

How the results depend on the processing

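On main probe sets the TAC differences of Pink1 and Bnip3 were below 0 in both genotypes, and those of Dnm1l and Mff above 0. This held under all 12 settings other than leaving out an array. The sign could change only where probe sets were averaged, arrays were quantile normalized, centred or weighted, or a replicate block was added. The remaining settings keep the same group means, so they can change the call but not the direction. Bnip3 in the knockout passed under none of the 12 (adjusted p from 0.254 to 0.564). Among the values in wild type 119 of 135 kept direction and call under the 12 settings, and in the knockout 120 of 135. Both counts include the settings that cannot change the direction. Of the 5 calls in wild type, 2 were left in a fit on the compared arrays alone and 2 with a minimum of 1.5-fold, while quantile normalization gave 8 (2 higher, 6 lower). Of the 7 calls in the knockout, 4 were left with 1 probe set per gene, 2 with the mean of a gene's sets, where fewer features were tested, and 4 with a minimum of 1.5-fold. Between genotypes after TAC, array weights gave 2 in place of 0. Leaving out 1 array gave 3 to 7 calls in wild type (3 without basal WT 2) and 3 to 8 in the knockout (4 without basal KO 1, 2 or 3 or TAC KO 2, 3 without TAC KO 4), and 0 to 0 in the other comparisons. Calls gained under single settings were traced on main probe sets and on others called as deposited in some comparison. These gains, for Mfn1, Mfn2, Opa1, Fis1 and Pink1, are given beside their values. The exception is Mfn1 1419997_at in wild type with array weights (log2 0.34, adjusted p = 0.0219). Gains on the remaining member probe sets enter the counts without being named. The cause of these changes in calls was not tested.

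For the TAC comparisons, deviations of samples with the same replicate number correlated with r from -0.05 to 0.04 and -0.06 to 0.08. Between genotypes r exceeded 0.1 for 0 of 3 basal pairs and 2 of 4 TAC pairs. Those 2 were TAC KO 1 with TAC WT 1 (r = 0.579) and TAC KO 4 with TAC WT 4 (r = 0.503). Arrays of unlike number reached similar sizes, such as TAC KO 1 with TAC WT 2 (r = 0.544) and with TAC WT 4 (r = -0.562). TAC arrays of the 2 genotypes thus shared deviations, and the replicate number does not settle a pairing. With the replicate block 5 member probe sets passed in wild type, 5 in the knockout and 0 between genotypes.

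Values that changed sign were not called as deposited or under the setting that turned them. In wild type after TAC Mfn1 was 0.0039 with the mean of probe sets and 0.012 with array weights, and Mfn2 was 0.072 with array weights and -0.18 to 0.03 without 1 array. Between basal genotypes Mfn1 was 0.01 after median centring and 0.0019 with array weights. After TAC Fis1 was 0.056 after quantile normalization. For the difference of the knockout effects Fis1 was -0.022 with the mean of probe sets, -0.011 after centring and -0.043 with array weights, and Pink1 was 0.029 after quantile normalization; a fit on the compared arrays alone needs all 4 groups. Without 1 array the ranges were, in basal hearts, -0.022 to 0.033 (Mfn1), -0.01 to 0.075 (Dnm1l), -0.20 to 0.065 (Fis1) and -0.12 to 0.07 (Mff); after TAC, -0.30 to 0.0092 (Mfn1), -0.18 to 0.0275 (Mfn2), -0.04 to 0.043 (Fis1), -0.45 to 0.055 (Pink1) and -0.03 to 0.26 (Bnip3); and for the difference, -0.30 to 0.0125 (Mfn1), -0.07 to 0.20 (Fis1) and -0.32 to 0.19 (Pink1).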
